A study of Mus musculus with 19 samples.

Results

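The growth hormone, STAT5 and prolactin receptor axis was followed here through 10 genes, which are 10 of the 35498 genes counted in these livers. They are the receptors Ghr and Prlr, the transcription factors Stat5a and Stat5b, the circulating growth factor system Igf1 and Igfals, the feedback inhibitor Socs2, the repressor Bcl6, and the male-biased hepatic genes Elovl3 and Hsd3b5. The members were chosen by their place in the pathway, with no threshold, and their reads were summed per gene in all 19 libraries. The list was drawn up with results of these same groups in view, among them the low Elovl3 counts in WSD and the higher Prlr counts in WSD+beta-Glucan, so the fitted values below describe these livers and are not independent support. All 10 members passed the filter on low counts.

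Liver RNA was sequenced from male C57BL/6J mice sampled at 24 weeks. The labels set 2 treatments, CTRL and WSD, each without and with beta-Glucan. This gave 5 CTRL and 5 WSD libraries, and 5 libraries of CTRL+beta-Glucan beside 4 of WSD+beta-Glucan; no allele, transgene or further agent is given for any of them. The series title names oat beta-glucan, a soluble cereal fibre, the microbiota and fatty liver disease, and the labels do not spell out WSD, which is used as a group name. The labels do not say whether every library is a separate animal, and p-values here therefore reflect variation among the samples, part of which may be technical.

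Growth hormone binds its receptor on hepatocytes and activates the kinase JAK2, which phosphorylates STAT5. STAT5 then enters the nucleus and switches on genes such as Igf1, Igfals and Socs2. SOCS2 in turn limits signalling from the receptor. In male rodents growth hormone is secreted in pulses, and the pulsed STAT5 activity keeps male-biased liver genes high, whereas the steadier female pattern favours female-biased genes and the prolactin receptor. BCL6 is a repressor that binds many of the same DNA elements as STAT5 and is itself lowered by growth hormone. Messenger RNA levels do not report receptor protein or phosphorylated STAT5, and circulating hormones were not among the values analysed here.

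STAT5 dimers recognise the palindrome TTCNNNGAA, which reads the same on both strands. RefSeq promoter windows (250 bases before to 50 after a start, build GRCm38.p6) were present for 8 of the 10 members, and Socs2 and Elovl3 had no entry. The palindrome was found in windows of 3 of these 8 genes, Prlr, Igfals and Bcl6, and in 5 of the 16 windows of the 8 genes. Among all promoters listed, 8.3% of 32851 windows and 9.55% of 27025 genes held it. All sites found in these 3 genes are shown, and a link between a site and RNA levels was not tested. The palindrome is in capitals, with 10 bases on each side, written 5′ to 3′ on the strand of the gene. A match is a string of letters and not evidence of binding.

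The Igfals sites start 58 and 236 bases upstream of annotated starts, at chr17:24878163-24878191 and chr17:24877598-24877626 on the plus strand, both inside an intron of a longer Igfals transcript.
Igfals at 58 bases: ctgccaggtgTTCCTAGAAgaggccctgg
Igfals at 236 bases: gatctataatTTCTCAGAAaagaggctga
The Prlr site starts 110 bases upstream of one of 3 starts, at chr15:10223786-10223814 on the plus strand, within an intron.
Prlr at 110 bases: gcaaaatgagTTCTAGGAAtaagggatat
Of the 4 Bcl6 sites, 1 lies upstream of the gene, 118 bases before its first start, at chr16:23988952-23988980 on the minus strand. The other 3 lie within an intron, 168, 122 and 88 bases before the second start, at chr16:23981433-23981461, chr16:23981387-23981415 and chr16:23981353-23981381.
Bcl6 at 118 bases: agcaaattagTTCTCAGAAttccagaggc
Bcl6 at 168 bases: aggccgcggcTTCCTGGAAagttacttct
Bcl6 at 122 bases: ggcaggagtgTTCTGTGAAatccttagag
Bcl6 at 88 bases: atcgactacgTTCCGGGAAtgagagggct

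Libraries held 17253823 to 23450232 estimated reads. The libraries titled 37 (replicate 1 of WSD+beta-Glucan), 39 and 40 (replicates 1 and 2 of CTRL+beta-Glucan) carry the lowest title numbers, all other titles running from 52 to 84, and the labels do not say whether they were prepared apart. Results were therefore also computed without them. Levels of 1 gene are given as CPM, counts scaled to a common library size by TMM (trimmed mean of M values, which equalises the bulk of the genes between libraries), and levels of different genes are compared as TPM, which also divides by transcript length. The scaling matters in these livers: TMM factors were 1.139 to 1.265 in WSD and 1.02 to 1.174 in WSD+beta-Glucan, against 0.8289 to 0.8963 in CTRL and 0.7765 to 0.9549 in CTRL+beta-Glucan. With library totals alone, an alternative chosen after the data were seen, the median gene in WSD against CTRL sat at a log2 difference of 0.43, against -0.04 after TMM. The calls over all genes were then 7874 higher and 617 lower, against 3528 higher and 3680 lower.

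In CTRL livers, mean TPM was 403 ± 37.1 (SD, n = 5) for Igf1, 369 ± 88.8 for Elovl3, 147 ± 10.8 for Ghr and 56.3 ± 18.3 for Igfals. Prlr followed at 19.5 ± 4.31, Socs2 at 14.7 ± 10.3 and Stat5b at 11.6 ± 1.31. Hsd3b5 stood at 7.68 ± 6.24, Stat5a at 3.82 ± 0.830 and Bcl6 at 3.44 ± 1.53. The secreted growth factor and the fatty acid elongase were thus the most abundant messages of the 10, and their spreads overlapped, as did those of neighbours in this order from Prlr downward. The hormones themselves are made elsewhere: Gh and Prl had 0 counts in all 19 libraries, and Ghrh had 4 counts in total.

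In WSD against CTRL, 1 of the 10 genes was higher (Stat5a) and 6 were lower (Prlr, Igf1, Igfals, Socs2, Elovl3 and Hsd3b5) at an adjusted p under 0.05 in edgeR's quasi-likelihood test. Over all 13594 genes tested, 53% passed in this comparison, 26% higher and 27.1% lower, so passing was common here. The median log2 difference of the 10 genes was -0.98, against -0.04 over all genes tested. The libraries of both groups did not overlap for 6 of the 10 genes, 5 lower and 1 higher, where 18.4% of all genes tested were lower and 20% higher without overlap. These counts are on the TMM scale. On the TPM scale, which does not use the TMM factors, 3 genes were lower without overlap (Prlr, Elovl3 and Hsd3b5) and 2 higher (Stat5a and Stat5b), where 2.55% of all genes tested were lower and 43% higher without overlap. On library totals 3 of the 10 genes passed as higher and 5 as lower, where 7874 of the 13594 genes tested were higher and 617 lower. The 5 genes lower without overlap and Stat5a kept their direction and their side of the threshold in all 27 other settings, whereas the values shrank or grew with the scaling as given for each gene below.

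**Figure D1:**
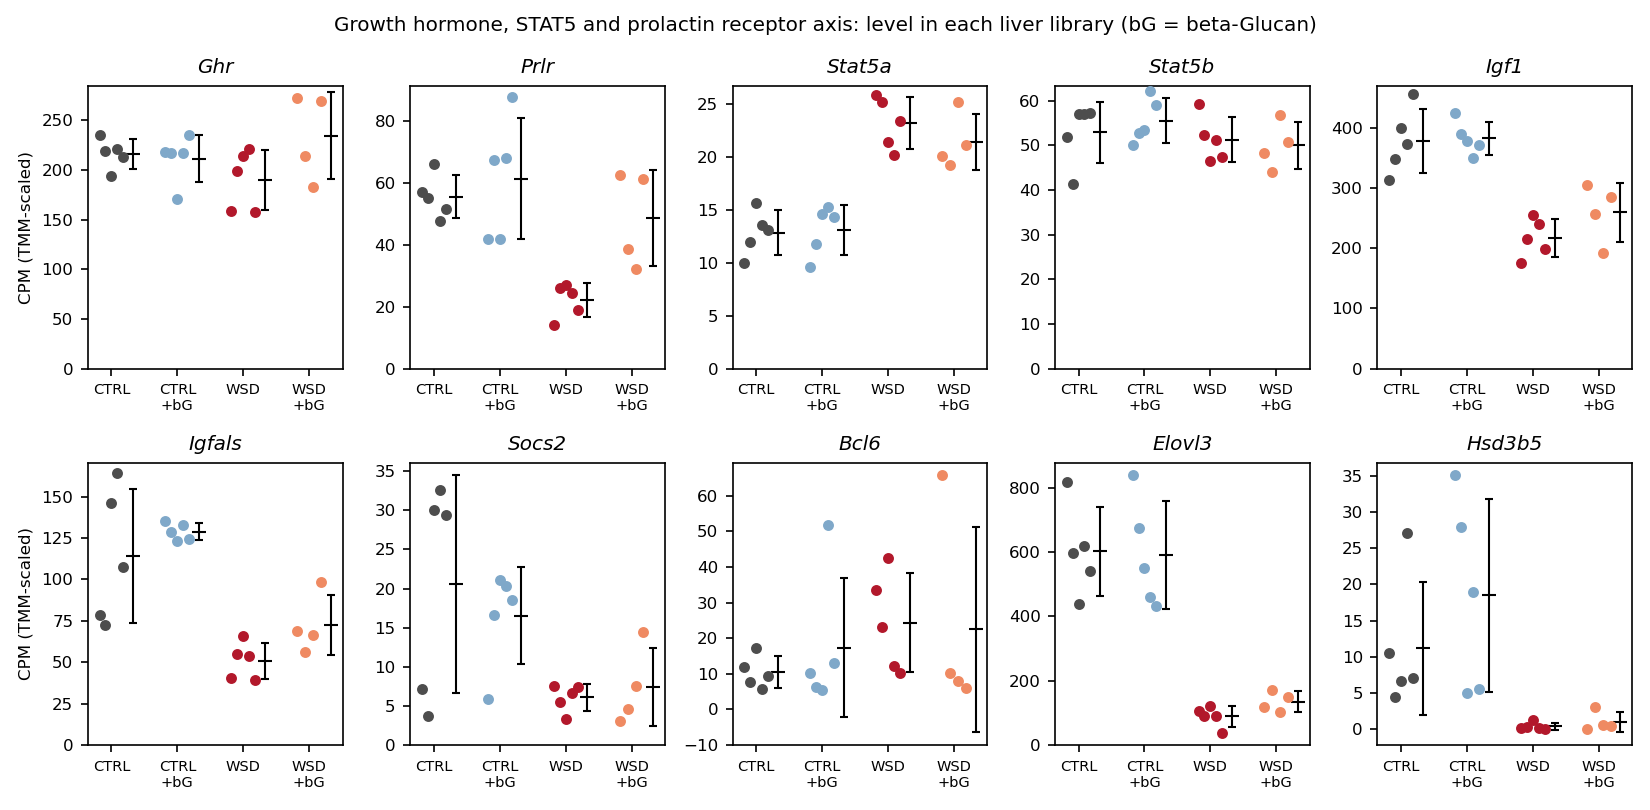
Level of each of the 10 genes in every library (points, CPM after TMM scaling, axis from 0 except where the SD bar of Bcl6 or Hsd3b5 reaches below it), with the mean and SD of each group beside the points. For Elovl3, Hsd3b5 and Igf1 every library of both WSD groups lies below every library of both CTRL groups, and for Stat5a above. The nearest libraries of Igf1 stand at 305 and 314 CPM. Prlr is low in WSD and not in WSD+beta-Glucan, and Bcl6 has 1 high library each in CTRL+beta-Glucan and WSD+beta-Glucan.

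Ghr encodes the growth hormone receptor. Its CPM was 235, 219, 194, 221 and 213 in CTRL replicates 1 to 5 and 158, 199, 214, 221 and 158 in WSD. In CTRL+beta-Glucan it was 218, 217, 171, 217 and 235, and in WSD+beta-Glucan 273, 214, 183 and 269. All 4 groups overlapped. The WSD difference was -0.19 ± 0.12 (log2, SE) with adjusted p = 0.205 in edgeR and turned to 0.27 (edgeR adjusted p = 0.0322) with library totals alone. In WSD+beta-Glucan against CTRL+beta-Glucan the difference was 0.15 (edgeR adjusted p = 0.395), lay between 0.07 and 0.44 in the 27 other settings and passed in 1 of them, with library totals alone (0.44, edgeR adjusted p = 0.00376). On the TPM scale every WSD+beta-Glucan library, at 169.6 TPM or more, lay above every CTRL+beta-Glucan library, at 163.6 or less.

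Prlr encodes the prolactin receptor, which also signals through STAT5. CPM was 57.2, 55.2, 66.2, 47.6 and 51.5 in CTRL and 14.01, 26.0, 27.04, 24.3 and 18.9 in WSD. Every WSD library lay below every CTRL library. The mean fell from 55.5 ± 7.02 (SD, n = 5) to 22.05 ± 5.48 (n = 5), a log2 difference of -1.33 ± 0.23 (SE), 2.52-fold lower, with edgeR adjusted p = 0.000119; with library totals alone the difference was -0.87.

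With beta-glucan added to WSD, Prlr was the 1 gene of the 10 past the threshold. CPM was 62.5, 38.6, 32.3 and 61.1 in the 4 WSD+beta-Glucan libraries, all above the 5 WSD libraries, and the mean was 48.6 ± 15.5 (SD, n = 4). Over all genes tested 0.39% passed in this comparison, of which 0.0883% higher and 0.302% lower, and 2.59% were higher and 4.83% lower without overlap. The log2 difference was 1.14 ± 0.24 (SE), a 2.20-fold rise, with a 95% interval of 0.63 to 1.65 and edgeR adjusted p = 0.0476. The call was lost in 17 of 27 other settings. Over these 27 the adjusted p ran from 0.000862 (DESeq2) to 0.232 (edgeR), and the difference from 0.97 to 1.29. Without the libraries titled 37, 39 and 40 the difference was 0.99 (edgeR adjusted p = 0.0958). Leaving out WSD+beta-Glucan replicate 1, 2 or 4 gave adjusted p of 0.130, 0.0816 and 0.232 in edgeR, and leaving out any 1 of the 5 WSD libraries also ended the call.

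Without WSD, beta-glucan left Prlr with a wide spread. CTRL+beta-Glucan libraries were at 41.9, 67.6, 41.7, 68.1 and 87.7 CPM, overlapping CTRL, with a difference of 0.15 ± 0.23 (log2, SE, interval -0.33 to 0.62; edgeR adjusted p = 0.915). The difference between the 2 beta-glucan effects was 0.99 ± 0.33 (unadjusted p = 0.00788, edgeR adjusted p = 0.243), which did not pass. WSD+beta-Glucan and CTRL+beta-Glucan also overlapped, at -0.34 ± 0.24 (edgeR adjusted p = 0.293). In order of mean CPM, CTRL+beta-Glucan, CTRL and WSD+beta-Glucan did not differ beyond their spread, and WSD stood below them.

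Stat5a and Stat5b are paralogous transcription factors, and Stat5b carries most of the growth hormone response in liver. Stat5a was at 9.95, 11.9, 15.6, 13.5 and 13.1 CPM in CTRL and at 25.9, 25.2, 21.4, 20.1 and 23.3 in WSD. In CTRL+beta-Glucan it was at 9.60, 11.7, 14.6, 15.2 and 14.3, and in WSD+beta-Glucan at 20.03, 19.2, 25.1 and 21.1. Every library of both WSD groups lay above every library of both CTRL groups. The rise was 0.85 ± 0.13 (log2, SE; edgeR adjusted p = 1.64e-05) in WSD against CTRL, and 0.70 ± 0.14 (edgeR adjusted p = 0.000527) in WSD+beta-Glucan against CTRL+beta-Glucan.

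Stat5b moved little on the same scale. Group means were 52.9 ± 6.81 (SD, n = 5) CPM in CTRL, 55.6 ± 4.97 (n = 5) in CTRL+beta-Glucan, 51.3 ± 5.09 (n = 5) in WSD and 50.02 ± 5.30 (n = 4) in WSD+beta-Glucan, and all groups overlapped. The WSD difference was -0.04 ± 0.10 (log2, SE; edgeR adjusted p = 0.725) after TMM and turned to 0.43 (edgeR adjusted p = 0.00444) with library totals alone. On the TPM scale all 5 WSD libraries (13.7 to 17.7) lay above all 5 CTRL libraries (9.49 to 12.8). A ratio of both genes within a library does not depend on that scaling. Stat5a over Stat5b in TPM ran from 0.253 to 0.412 in CTRL and from 0.256 to 0.347 in CTRL+beta-Glucan, against 0.513 to 0.680 in WSD and 0.580 to 0.597 in WSD+beta-Glucan, so the 2 messages changed unequally. Of the 31-base words of Stat5b transcripts 15.1% occur in other genes, here Stat5a, and 11.7% of those of Stat5a occur elsewhere, so a part of the reads cannot be placed between them with certainty.

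Igf1, the growth factor that the liver releases into blood, fell in WSD. CPM was 314, 349.6, 401, 374 and 457 in CTRL and 176, 216, 256, 241 and 198 in WSD, without overlap. The log2 difference was -0.80 ± 0.13 (SE; 1.74-fold lower; edgeR adjusted p = 2.97e-05), and it shrank to -0.34 (edgeR adjusted p = 0.00658) with library totals alone. Per total TPM the groups overlapped, at 403 ± 37.1 in CTRL and 342 ± 38.5 in WSD. Among beta-glucan livers CPM was 426, 391, 379, 351 and 372 in CTRL+beta-Glucan and 305, 258, 193 and 286 in WSD+beta-Glucan. There Igf1 was lower by -0.56 ± 0.14 (log2, SE; edgeR adjusted p = 0.00341), a call lost with library totals alone (-0.27, edgeR adjusted p = 0.0510). WSD+beta-Glucan and WSD overlapped, and their difference of 0.26 ± 0.13 had a 95% interval of -0.02 to 0.54 (edgeR adjusted p = 0.356).

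Igfals encodes the acid-labile subunit, which holds IGF1 in its large circulating complex. CPM was 78.7, 72.6, 146, 164 and 108 in CTRL and 40.6, 55.0, 65.6, 53.5 and 39.2 in WSD. The difference was -1.17 ± 0.21 (log2, SE; 2.24-fold lower; edgeR adjusted p = 0.000131) after TMM and -0.71 with library totals alone. On the TPM scale both groups overlapped, at 28.2 to 44.8 in WSD and 39.1 to 79.5 in CTRL. CTRL+beta-Glucan was the tightest group of the gene, at 135, 128, 123, 133 and 125 CPM, a coefficient of variation of 4.09% against 35.6% in CTRL. WSD+beta-Glucan stood at 68.6, 56.0, 66.7 and 98.3, below CTRL+beta-Glucan by -0.83 ± 0.22 (log2, SE; edgeR adjusted p = 0.00720), and that call was lost when the libraries titled 37, 39 and 40 were left out (edgeR adjusted p = 0.0633). Against WSD the difference was 0.51 ± 0.22 with an interval of 0.06 to 0.97 and edgeR adjusted p = 0.266, which did not pass.

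Socs2, the feedback inhibitor induced by STAT5, split the CTRL group. Replicates 3, 4 and 5 were at 29.97, 32.6 and 29.4 CPM, and replicates 1 and 2 at 7.20 and 3.66, within the range of the WSD libraries at 7.51, 5.49, 3.29, 6.68 and 7.44. CTRL replicates 1 and 2 also had the lowest Igfals (78.7 and 72.6) and the lowest Igf1 (314 and 349.6) of their group. In each other group the single library with the lowest Socs2 had the highest Igf1: WSD replicate 3 (256), CTRL+beta-Glucan replicate 1 (426) and WSD+beta-Glucan replicate 1 (305). The beta-glucan libraries among these are titled 39 and 37. Igfals was also the highest of its group in WSD replicate 3 (65.6) and CTRL+beta-Glucan replicate 1 (135). In WSD+beta-Glucan it was 68.6 in replicate 1, and replicate 4 had the highest Igfals (98.3) beside the highest Socs2 (14.4). The Socs2 difference in WSD against CTRL was -1.76 ± 0.55 (log2, SE; edgeR adjusted p = 0.0130) with overlap of the groups, and with library totals alone it was -1.27 (edgeR adjusted p = 0.0572). CTRL+beta-Glucan was at 5.84, 16.6, 21.1, 20.4 and 18.5, and WSD+beta-Glucan at 3.07, 4.63, 7.53 and 14.4. Neither WSD+beta-Glucan against WSD (0.30 ± 0.59, edgeR adjusted p = 0.844) nor WSD+beta-Glucan against CTRL+beta-Glucan (-1.15 ± 0.58, edgeR adjusted p = 0.137) passed.

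Bcl6 varied widely between libraries of 1 group, with coefficients of variation from 43.4% in CTRL to 128.5% in WSD+beta-Glucan. CPM was 11.8, 7.62, 17.3, 5.68 and 9.43 in CTRL and 33.6, 23.2, 42.6, 12.3 and 10.2 in WSD. The groups overlapped, and the difference of 1.23 ± 0.75 (log2, SE; edgeR adjusted p = 0.177) did not pass, except in a fit of the compared groups alone (1.28, edgeR adjusted p = 0.0412). In CTRL+beta-Glucan CPM was 10.1, 6.27, 5.41, 51.7 and 13.1, and in WSD+beta-Glucan 65.7, 10.2, 7.96 and 6.06. A single library of each beta-glucan group was high. WSD replicate 3 and WSD+beta-Glucan replicate 1, with the highest Bcl6 of their groups (42.6 and 65.7), had the lowest Socs2 of those groups (3.29 and 3.07), whereas CTRL+beta-Glucan replicate 4, with Bcl6 at 51.7, had Socs2 at 20.4, within its group, and CTRL replicate 3, with the highest Bcl6 of CTRL at 17.3, had Socs2 at 29.97, the second highest there.

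Elovl3, an elongase of very long chain fatty acids and a male-biased liver gene, fell further in WSD than any of the 10 genes except Hsd3b5. CPM was 816, 595, 438, 618 and 542 in CTRL and 106, 89.7, 122, 88.9 and 38.2 in WSD. The log2 difference was -2.76 ± 0.27 (SE; 6.76-fold lower; edgeR adjusted p = 1.97e-07) and ran from -2.90 to -2.31 over the other settings. With beta-glucan the levels were 838, 675, 549, 460.0 and 433 in CTRL+beta-Glucan and 118, 171, 101 and 150.4 in WSD+beta-Glucan, a difference of -2.13 ± 0.29 (edgeR adjusted p = 2.61e-05). WSD+beta-Glucan exceeded WSD by 0.60 ± 0.27 (interval 0.04 to 1.17; edgeR adjusted p = 0.290), which did not pass, and the 2 groups overlapped.

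Hsd3b5 encodes a male-specific 3-keto-steroid reductase of the liver. Counts were 188, 73, 114, 459 and 136 in CTRL and 4, 8, 30, 3 and 1 in WSD, and 486, 450, 84, 410 and 112 in CTRL+beta-Glucan against 0, 73, 12 and 9 in WSD+beta-Glucan. In CPM the means were 11.2 ± 9.20 (SD, n = 5), 0.398 ± 0.514 (n = 5), 18.5 ± 13.3 (n = 5) and 0.9996 ± 1.42 (n = 4) in the same order. The library with 0 counts allows up to 0.165 CPM (3 counts, counting error only). The fall was -4.79 ± 0.95 (log2, SE; edgeR adjusted p = 0.000508) in WSD against CTRL and -4.15 ± 0.92 (edgeR adjusted p = 0.00256) in WSD+beta-Glucan against CTRL+beta-Glucan, both without overlap. These sizes rest on few counts in the WSD groups, and 34.1% of the 31-base words of Hsd3b5 transcripts are shared with other genes, 25.6% with Gm10681, so the split of reads among these copies is uncertain.

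**Figure D2:**
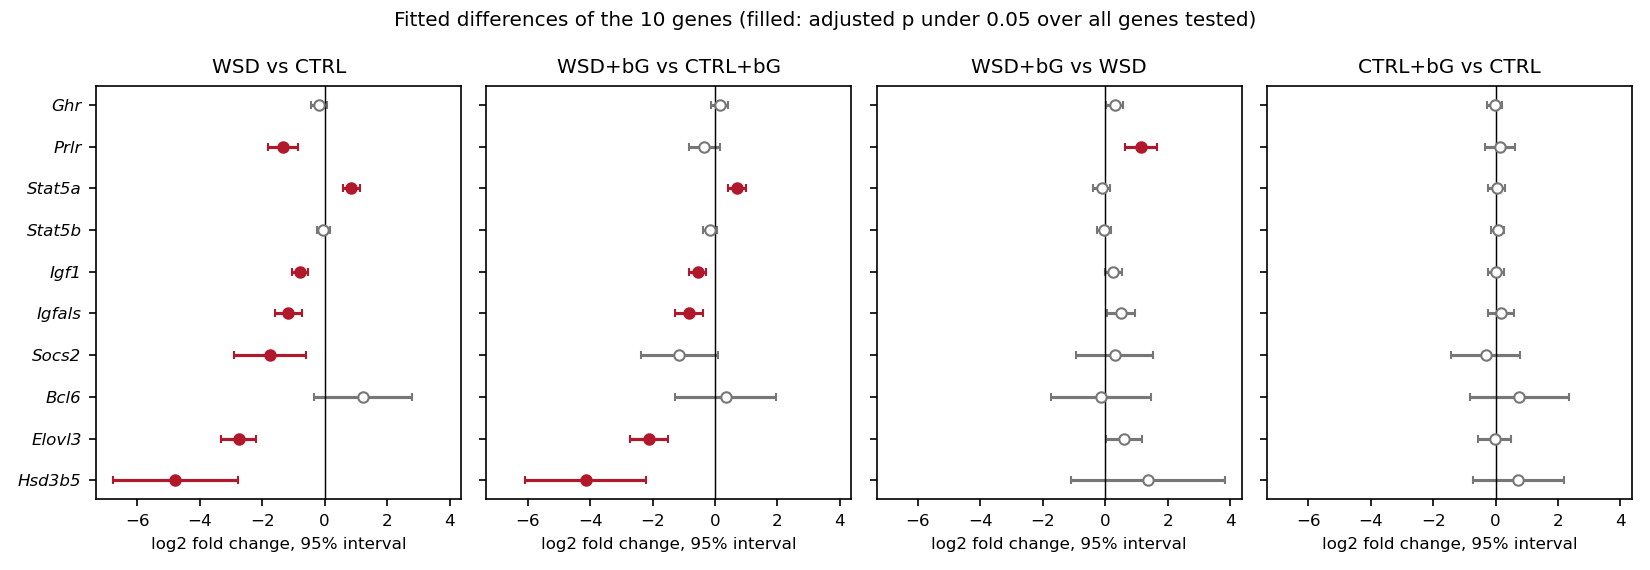
Fitted log2 fold change of each gene with its 95% interval in the 4 pairwise comparisons (filled red where the edgeR adjusted p over all genes tested was under 0.05). Stat5a is higher and Igf1, Igfals, Elovl3 and Hsd3b5 are lower in both comparisons of WSD with CTRL, Prlr alone passes in WSD+beta-Glucan against WSD, and no gene passes in CTRL+beta-Glucan against CTRL; with library totals in place of TMM scaling Ghr and Stat5b turn to higher in WSD.

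Across the beta-glucan livers, WSD+beta-Glucan against CTRL+beta-Glucan, 5 of the 10 genes passed, 1 higher and 4 lower, where 34.3% of all genes tested passed (19.1% higher and 15.2% lower). These were Stat5a, Igf1, Igfals, Elovl3 and Hsd3b5. All 5 were without overlap of the groups on the TMM scale, where 14.4% of all genes tested were higher and 10.7% lower without overlap. On the TPM scale Igf1 and Igfals overlapped, Stat5a and Ghr were higher and Elovl3 and Hsd3b5 lower without overlap, where 25.6% of all genes tested were higher and 1.4% lower. On library totals 2 of the 10 genes passed as higher (Stat5a and Ghr) and 3 as lower. Over all 13594 genes tested 5137 were then higher and 385 lower. Prlr and Socs2 passed in WSD against CTRL and not here; a difference between those 2 comparisons is the interaction, which no member passed. Its values were 0.99 ± 0.33 for Prlr, -0.89 ± 1.07 for Bcl6, 0.64 ± 1.35 for Hsd3b5, 0.63 ± 0.37 for Elovl3 and 0.61 ± 0.79 for Socs2 (log2, SE). The other 5 genes lay between -0.15 for Stat5a and 0.34 for Ghr, and edgeR adjusted p ran from 0.243 to 0.851 over the 10 genes. Of all genes tested 0.00736%, 1 gene and a lower one, passed in the interaction (none higher, 0%), and 13.7% had an unadjusted p under 0.05.

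Beta-glucan added to CTRL moved none of the 10 genes past the threshold, where 0.00736% of all genes tested, 1 gene and a higher one, passed in edgeR (none lower, 0%) and 5.7% had an unadjusted p under 0.05. DESeq2 called 6 genes there, and 0 of the members. All 10 genes overlapped between these groups, where 0.28% of all genes tested were higher and 0.206% lower without overlap. The fitted differences ran from -0.31 ± 0.52 for Socs2 to 0.76 ± 0.75 for Bcl6. For Igf1 the 95% interval was -0.25 to 0.28 and for Elovl3 -0.56 to 0.51, which bounds what could be missed for these genes. The intervals of Socs2 (-1.42 to 0.80), Bcl6 (-0.83 to 2.35) and Hsd3b5 (-0.73 to 2.18) were wider, so larger changes could be missed there. The spread behind these intervals was estimated over all 19 libraries. In WSD+beta-Glucan against WSD, which shares the WSD libraries with WSD against CTRL, the intervals of Ghr (0.04 to 0.57), Igfals (0.06 to 0.97) and Elovl3 (0.04 to 1.17) lay above 0 before adjustment and none of the 3 passed after it; 15.6% of all genes tested had an unadjusted p under 0.05 there.

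**Figure D3:**
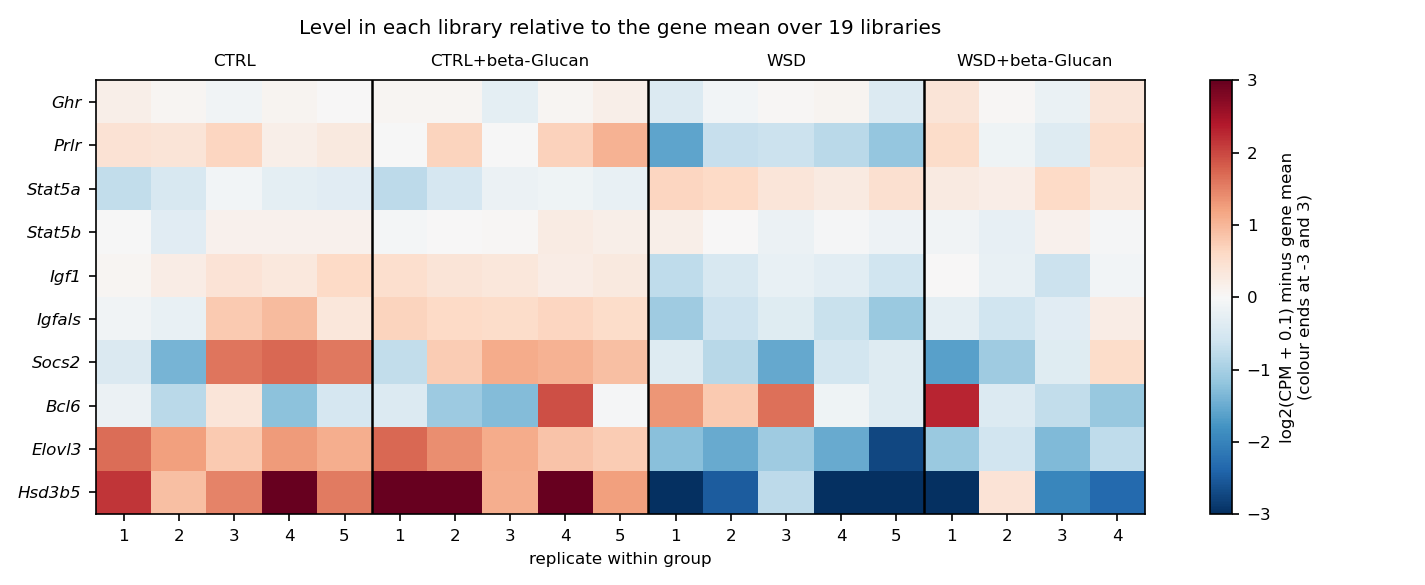
Level of each gene in each library as log2(CPM + 0.1) minus the mean of the gene over the 19 libraries (red above, blue below, colours end at -3 and 3; columns are replicates within the 4 groups). Elovl3, Hsd3b5 and Igf1 are lower, and Stat5a is higher, in every library of both WSD groups than in every library of both CTRL groups. CTRL replicates 1 and 2 carry low Socs2 beside lower Igfals, and replicate 4 of WSD+beta-Glucan carries the highest of both in its group. By contrast, WSD replicate 3 and CTRL+beta-Glucan replicate 1 carry the lowest Socs2 of their groups beside the highest Igfals. Bcl6 is highest in replicate 1 of WSD+beta-Glucan, followed by replicate 4 of CTRL+beta-Glucan.

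Transcripts of 1 gene can differ in what they encode, and their shares of the gene's TPM were not used to choose the members. For Ghr, the transcript Ghr-203, with 297 codons, the secreted growth hormone binding protein form, held 62.5% of the gene's TPM over all libraries, and Ghr-201, with 650 codons, the full receptor, held 33.9%. The Ghr-203 share was 62.7 ± 1.67% (SD, n = 5) in CTRL, 62.7 ± 1.94% (n = 5) in WSD, 64.0 ± 5.03% (n = 5) in CTRL+beta-Glucan and 61.3 ± 1.97% (n = 4) in WSD+beta-Glucan. For Prlr a short form of 310 codons, Prlr-205, held 52.4%, and the long form of 608 codons, Prlr-202, held 9.88%. Prlr-209, a transcript annotated as nonsense-mediated decay, held 14.5%. Prlr-205 was at 49.4 ± 3.62% in CTRL, 51.6 ± 5.46% in WSD, 52.5 ± 6.18% in WSD+beta-Glucan and 58.7 ± 12.8% in CTRL+beta-Glucan, where libraries ran from 43.0% to 76.0%. Prlr-208, a form of 155 codons, was at 18.1 ± 3.41% in CTRL, 19.5 ± 7.34% in WSD, 15.6 ± 5.41% in WSD+beta-Glucan and 9.07 ± 5.69% in CTRL+beta-Glucan. Its difference in CTRL+beta-Glucan against CTRL, -1.24 ± 0.40 (log2 ratio, SE; unadjusted p = 0.00662), did not pass in limma (adjusted p = 0.650).

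Igf1 was carried mainly by Igf1-206 with 143 codons (44.9%) and Igf1-205 with 137 codons (39.5%). For Igfals, a transcript annotated without a coding sequence, Igfals-204, held 70.4% of the TPM, and the coding Igfals-201, with 603 codons, held 25%, so the gene's total is mostly not the coding form as estimated. Of 21 member isoforms tested with limma, 0 passed an adjusted p of 0.05 in any of the 5 contrasts. Over all 21776 isoforms tested 1.18% passed in WSD against CTRL, 0.0781% in WSD+beta-Glucan against CTRL+beta-Glucan, 0.00918% in CTRL+beta-Glucan against CTRL, 0.00459% in the interaction and 0% in WSD+beta-Glucan against WSD. The lowest adjusted p of a member isoform in WSD against CTRL was 0.164, for Stat5b-201, whose share was 82.4 ± 2.65% in CTRL and 90.0 ± 7.25% in WSD, and which passed at a pseudocount of 1 TPM (limma adjusted p = 0.0484) and without WSD replicate 2 (0.0364).

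**Figure D4:**
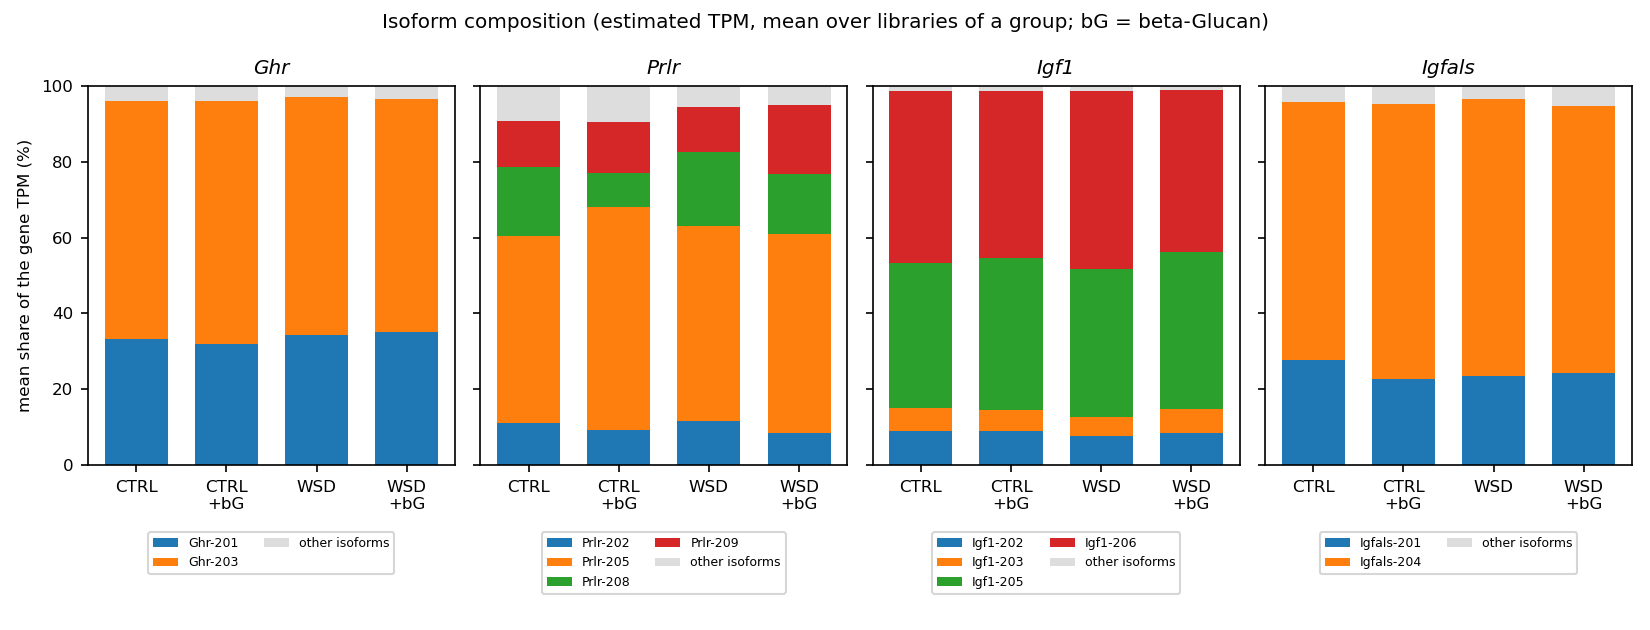
Mean share of each gene's TPM held by its isoforms in each group (bars sum to 100%, grey for isoforms below 5% over all libraries). Ghr-203 holds 61.3% to 64.0% and Igfals-204 68.2% to 73.2% in the 4 groups, Prlr-205 holds 49.4% in CTRL and 58.7% in CTRL+beta-Glucan, and no isoform share in this plot passed the test.

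For each gene the 3 protein-coding genes with the most similar pattern over the 19 libraries were found by the root-mean-square difference of log2 CPM after centring, given as a description. Prlr was nearest to Slc10a1 (0.303), the main bile acid uptake carrier of hepatocytes, then Dpyd (0.304) and Serpina3m (0.309), against a spread of Prlr itself of 0.709 (SD of log2 CPM). Elovl3 was nearest to C8b (0.426), Tm7sf2 (0.431) and Cyp7b1 (0.464), with an own spread of 1.37. Igf1 was nearest to Scyl3 (0.131), Adtrp (0.136) and Itih1 (0.142), and Igfals to Lrit1 (0.237), Dact2 (0.262) and Fbxo21 (0.264), with own spreads of 0.418 and 0.644. Hsd3b5 came nearest to Serpina1e (0.957), with Adgrf1 and Mup1 both at 1.14, and Stat5a to Plin3 (0.165), Tap2 (0.172) and Dab2ip (0.179), with own spreads of 2.75 and 0.455. Ghr was nearest to Gcdh (0.0848), Pm20d1 (0.0902) and Pgrmc1 (0.0992), and Stat5b to Bckdk (0.111), with Pqlc1 and Ssbp3 both at 0.114, against own spreads of 0.215 and 0.155. Socs2 was nearest to E2f8 (0.577), Paqr9 (0.605) and Acacb (0.606) with an own spread of 1.11, and Hs3st3a1 and Tmcc2 stood at 0.866 from Bcl6, whose own spread was 1.1.

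Other genes of the pathway were followed in lists written from general knowledge, but with earlier results of these data known. The counts of these lists therefore describe these livers and are not independent support. Against 26% higher and 27.1% lower over all genes tested in WSD against CTRL, of 25 male-biased liver genes 21 were lower and 1 higher, with a median of -1.77. Among them were the complement component C8b (-2.23 ± 0.23, edgeR adjusted p = 3.25e-07), Cspg5 (-3.76 ± 0.41) and the major urinary protein Mup3 (-1.83 ± 0.20), while Cyp2u1 did not pass (0.02 ± 0.22). With library totals alone the count was 18 lower and 2 higher, where 617 of the 13594 genes tested were lower and 7874 higher. Of 22 tested female-biased genes 8 were higher and 5 lower, a share past the threshold near the 53% of all genes tested: the neurotrophin receptor Ntrk2 (5.49 ± 0.24, edgeR adjusted p = 3.79e-12) and the cytochrome Cyp2a22 (4.38 ± 0.32) rose, and Cyp2c40 (-3.88 ± 0.29) fell. In WSD+beta-Glucan against CTRL+beta-Glucan 16 of the 25 male-biased genes were lower and 0 higher, and 9 of the 22 female-biased genes were higher and 5 lower, where 15.2% of all genes tested were lower and 19.1% higher.

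Among 20 receptor-proximal signalling genes 8 were higher and 5 lower in WSD against CTRL. The insulin receptor substrate Irs2 (-2.26 ± 0.32) and the JAK2 adaptor Sh2b1 (-0.44 ± 0.08) fell, and Cish, a STAT5-induced inhibitor, did not pass (-0.02 ± 0.53, edgeR adjusted p = 0.976). Of 12 IGF system genes 3 were higher and 4 lower; the binding protein Igfbp2 fell (-1.21 ± 0.20), and Igfbp7 (1.92 ± 0.27) and the protease Htra1 (1.995 ± 0.424) rose. Of 15 transcription factors of the response 9 were lower and 0 higher, with Nfil3 (-1.44 ± 0.18), Nr1i3 (-0.87 ± 0.13) and Rxra (-0.63 ± 0.11) the firmest. With library totals alone these 3 lists gave 12 higher and 1 lower, 6 higher and 2 lower, and 4 higher and 3 lower, so their balance depended on the scaling. Taken in either direction, the shares of these 3 lists past the threshold lay near the 53% of all genes tested and are no result about the lists. By direction, 26% of all genes tested were higher and 27.1% lower after TMM, where the transcription factor list had 0 higher and 9 lower of 15. With library totals alone 7874 of all genes tested were higher and 617 lower.

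The receptors of other hormones and cytokines gave 3 higher and 7 lower of 16 in WSD against CTRL, or 7 higher and 2 lower with library totals alone, again near the 53% of all genes tested. Il10rb (1.87 ± 0.12) and Ifngr1 (0.89 ± 0.10) rose and Egfr (-1.77 ± 0.22) fell. In WSD+beta-Glucan against WSD, 1 gene of the transcription factor list was higher, the nuclear receptor Nr1i3 (0.68 ± 0.13, edgeR adjusted p = 0.0276), and 1 of the receptor list was lower, Il10rb (-0.68 ± 0.12, edgeR adjusted p = 0.0261). None of the genes of the male-biased, female-biased, receptor-proximal or IGF lists passed there, and no listed gene passed in CTRL+beta-Glucan against CTRL.

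**Figure D5:**
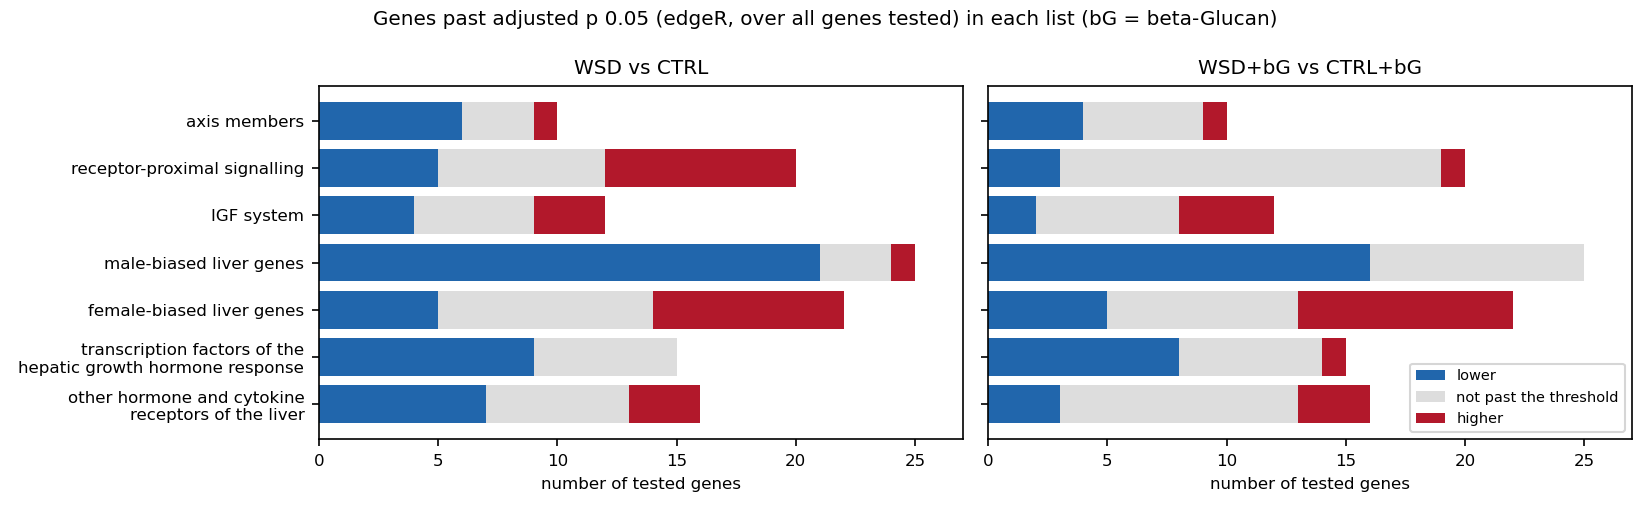
Number of tested genes of each list that were lower (blue), higher (red) or not past an edgeR adjusted p of 0.05 (grey), in WSD against CTRL and in WSD+beta-Glucan against CTRL+beta-Glucan. The male-biased genes are mostly lower, 21 of 25 and 16 of 25; the transcription factor list, 9 of 15 lower in WSD against CTRL, splits 4 higher and 3 lower with library totals alone.

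Marker RNA of several cell types differed between the groups. The defining hepatocyte genes were present in every library, at a summed 59346 to 67874 TPM over 11 genes in WSD, 70679 to 92904 in CTRL, 66356 to 82941 in WSD+beta-Glucan and 84980 to 102260 in CTRL+beta-Glucan. The 10 macrophage and monocyte genes summed to 557 to 769 TPM in WSD, 39.5 to 106 in CTRL, 290 to 398 in WSD+beta-Glucan and 36.4 to 119 in CTRL+beta-Glucan. In WSD against CTRL all 10 of these macrophage genes, 6 of 6 stellate and fibroblast genes, 4 of 6 endothelial genes and 4 of 6 T, NK and B cell genes were higher, and 7 of 11 hepatocyte genes were lower, where 26% of all genes tested were higher and 27.1% lower. On library totals the hepatocyte genes gave 2 higher and 4 lower and the endothelial genes 5 of 6 higher, and the counts of the other 3 lists were the same. Over all 13594 genes tested 7874 were then higher and 617 lower. In bulk RNA fewer cells of a type and less RNA per cell cannot be told apart, and the part of this shift in the values of the 10 genes was not tested.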

How the data were processed

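The deposited values are per-transcript quantifications of 19 liver libraries: estimated (expected) counts, TPM and effective lengths in bases. Per the submitters' processing notes the authors used Salmon 1.10.1, with DESeq2 1.38.3 and build GRCm39 also named; the transcript set and index options are not given in the sources used here. Per the labels' protocols, RNA came from a PureLink kit and libraries were stranded TruSeq mRNA.

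Transcript identifiers were matched to GENCODE M21 (GRCm38; 115977 of 116546 transcripts), the deposited estimated counts were summed per gene and rounded, and the deposited TPM values were summed per gene. In R 4.3.3, edgeR 4.0.16 (TMM, filterByExpr, robust quasi-likelihood F test, 1 mean per group, all 19 libraries) tested 13594 genes in 5 contrasts with Benjamini-Hochberg adjustment at 0.05. Isoform shares were tested with limma 3.58.1 on log2 ratios (pseudocount 0.1 TPM, shares from 5% to 95%). Both were tested on simulated data. Alternatives were RLE scaling, no filter, DESeq2 1.42.0, the compared groups alone, effective-length offsets, the libraries titled 37, 39 and 40 left out or given a term, each library left out, isoform pseudocounts of 0.01 and 1 TPM and, chosen after seeing the data, library totals without scaling factors. The libraries titled 37, 39 and 40 carry the S numbers 2, 3 and 1. WSD replicate 1, titled 52, also carries S number 2 and was not set apart with them. The deposited counts summed to 17253823 to 23450232 in a library. The members and lists were chosen with earlier results of these data known. From each list the text names up to 3 genes past the threshold with the smallest p and the 1 with the largest p. The 3 nearest patterns are named for each member. Isoforms of at least 5% are described for Ghr, Prlr, Igf1, Igfals and Stat5b, and not all of them are named. A few genes that these rules select are not reported here. Replicates are numbered in order of deposition.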

Additional observations from a re-analysis of the deposited data

Results flagged for a closer look

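Single libraries stood apart within their group in 6 of the 40 groups formed by the 10 genes and the 4 treatments (Dixon's test on CPM). The cut-off used gives about 1 in 20 for normally distributed values. CPM was not transformed and the 40 groups share the same 19 libraries, so the count does not measure an excess over chance. Ghr was lowest in CTRL+beta-Glucan replicate 3, at 170.7 CPM, with the next library at 216.8. Bcl6 was highest in CTRL+beta-Glucan replicate 4, at 51.65 CPM (next 13.1), and in WSD+beta-Glucan replicate 1, at 65.7 CPM (next 10.15). Hsd3b5 was highest in CTRL replicate 4, at 27.15 CPM (next 10.57), in WSD replicate 3, at 1.298 CPM (next 0.330), and in WSD+beta-Glucan replicate 2, at 3.10 CPM (next 0.519). WSD+beta-Glucan replicate 1 is the library titled 37.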

How the results depend on the processing

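In WSD against CTRL, 7 members passed in every fit that left out 1 library, and in WSD+beta-Glucan against CTRL+beta-Glucan 5 did; Stat5a, Prlr, Igf1, Igfals, Elovl3 and Hsd3b5 kept their calls in WSD against CTRL in all 27 other settings. With library totals alone Ghr turned to 0.27 and Stat5b to 0.43 in WSD against CTRL, and Stat5b to 0.14 in WSD+beta-Glucan against CTRL+beta-Glucan. In the latter comparison Ghr rose to 0.44 and passed (edgeR adjusted p = 0.00376). The scaling factors alone differ in that setting. In WSD+beta-Glucan against WSD, 53 genes passed; the count was 436 with DESeq2, 457 with the compared groups alone, 35 with effective-length offsets, 258 with a term for the libraries titled 37, 39 and 40, 294 with library totals alone and 2 to 184 with 1 library left out. Members past the threshold there were 0 with RLE scaling, without the filter, with length offsets and without those 3 libraries, and 0 to 1 with 1 library left out. In CTRL+beta-Glucan against CTRL, 1 gene passed; DESeq2 gave 6, the compared groups alone 0, leaving out the 3 libraries 5, their term 2, library totals 0 and leaving out 1 library 0 to 2. In the interaction, 1 gene passed; DESeq2 gave 139, leaving out the 3 libraries 2, their term 2, library totals 3 and leaving out 1 library 0 to 81. Member isoforms past the threshold in WSD against CTRL were 1 at a pseudocount of 1 TPM and 0 to 1 with 1 library left out. The cause of these differences between settings was not tested.

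Small differences that did not pass changed sign. In CTRL+beta-Glucan against CTRL, Stat5a was at -0.017 with length offsets; without the 3 libraries Igf1 was at -0.044 and Hsd3b5 at -0.17, and with their term Igf1 was at -0.070 and Socs2 at 0.040. With 1 library left out, this comparison ran from -0.043 to 0.093 for Igf1, -0.073 to 0.036 for Ghr, -0.045 to 0.12 for Stat5a, -0.0041 to 0.11 for Stat5b, -0.24 to 1.02 for Bcl6, -0.19 to 0.11 for Elovl3 and -0.016 to 0.26 for Prlr. In WSD+beta-Glucan against WSD, again with 1 library left out, it ran from -0.10 to 0.020 for Stat5b, -0.25 to 0.54 for Socs2, -1.60 to 0.19 for Bcl6 and -0.32 to 2.54 for Hsd3b5. Bcl6 in WSD+beta-Glucan against CTRL+beta-Glucan was at -1.54 without the 3 libraries, -0.030 with their term and -1.12 to 1.34 with 1 library left out. With 1 library left out the interaction ran from -1.04 to 1.81 for Hsd3b5 and -2.36 to 0.11 for Bcl6; without the 3 libraries it was 1.90 and -2.78 (edgeR). Depth limits Hsd3b5 in the WSD groups, where libraries held 0 to 73 counts. No paired analysis was possible because the replicate numbers follow the order of deposition and name no shared animal or batch.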
